A study of Mus musculus with 18 samples.

Results

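Type I interferon-stimulated genes are the genes that cells switch on after interferon-α or interferon-β binds its receptor. The members were a written list of 40 known genes of this kind, with no measured value in the rule. The list was chosen with earlier results of these data known. Of the 40, 38 had a row in the count files of this RNA-Seq experiment on mouse bone marrow-derived macrophages (BMDMs). Mx1 and Mx2, the classical antiviral GTPases, are not analysed here. All 38 genes passed the expression filter, which kept 11305 of the 22852 genes in the files. Ddx58, the gene for RIG-I, carries the newer symbol Rigi in the annotation.

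The macrophages came from the bone marrow of female C57BL/6 mice and were grown for 7 days with L929 cell-conditioned medium. There were 6 groups with 3 biological replicates each. Unstimulated BMDMs received no LPS, the cell wall lipid of Gram-negative bacteria that activates TLR4. LPS-stimulated BMDMs received 10 ng/ml LPS for 3 h. LPS-primed BMDMs received 100 ng/ml LPS for 24 h. LPS-tolerant BMDMs received 100 ng/ml for 24 h and then 10 ng/ml in fresh medium for 3 h. The remaining 2 groups were LPS-primed and LPS-tolerant BMDMs given 25 µM carboplatin, a platinum drug that crosslinks DNA, from 1 h before the first LPS. All groups share the strain, the sex and a culture grown for macrophages. The labels do not tie replicates to animals, so the p-values measure the spread between these samples, which may be partly technical.

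In macrophages, TLR4 signals through the adaptors MyD88 and TRIF. The TRIF branch activates IRF3, which turns on the interferon-β gene, and the secreted interferon acts back on the same cells through the receptor chains IFNAR1 and IFNAR2. Receptor signalling brings STAT2 and IRF9 into a complex that binds the interferon-stimulated response element (ISRE) in the promoters of the genes described here. Endotoxin tolerance is the state in which cells that have already met LPS respond differently to LPS given again.

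The promoters of the genes were searched for the letters of this element. Windows from 250 bases before to 50 bases after the annotated start (GRCm39) were searched on both strands for the letters GAAA, then any 2 bases, then GAAA again, called ISRE-like below. The letters were present in 20 of 38 promoters, which is 52.6%, against 3.84% of 21751 promoters of protein-coding genes. The shorter core GAAANNGAA, which every ISRE-like match contains, was present in 21 of 38 (55.3% against 8.78%). The letters GGGNN followed directly by TTNCC, a form of the NF-κB site, were present in 1 of 38 (2.63% against 5.04%). The 200 bases before the start are printed for 5 genes on which the LPS comparisons turn, in the direction of transcription, with ISRE-like matches on either strand in capitals.
Isg15 (chr4:156285304-156285503, minus strand): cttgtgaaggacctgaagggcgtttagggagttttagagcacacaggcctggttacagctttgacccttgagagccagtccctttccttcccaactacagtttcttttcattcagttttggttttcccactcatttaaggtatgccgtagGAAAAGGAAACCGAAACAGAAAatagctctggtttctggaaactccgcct
Ifit1 (chr19:34618071-34618270, plus strand): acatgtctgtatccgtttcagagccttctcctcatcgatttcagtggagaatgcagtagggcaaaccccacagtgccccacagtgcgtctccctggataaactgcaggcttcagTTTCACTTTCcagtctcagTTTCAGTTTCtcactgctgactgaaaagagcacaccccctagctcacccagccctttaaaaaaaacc
Rsad2 (chr12:26506452-26506651, minus strand): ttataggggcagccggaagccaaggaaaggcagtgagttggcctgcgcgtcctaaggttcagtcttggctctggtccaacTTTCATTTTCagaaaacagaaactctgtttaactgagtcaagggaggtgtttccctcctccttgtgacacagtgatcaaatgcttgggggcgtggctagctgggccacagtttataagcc
Ifit3b (chr19:34585128-34585327, plus strand): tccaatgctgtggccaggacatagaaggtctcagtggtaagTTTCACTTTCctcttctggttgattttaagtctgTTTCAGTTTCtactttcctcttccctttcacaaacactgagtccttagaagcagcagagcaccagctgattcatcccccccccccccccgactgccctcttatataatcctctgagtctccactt
Oasl1 (chr5:115061094-115061293, plus strand): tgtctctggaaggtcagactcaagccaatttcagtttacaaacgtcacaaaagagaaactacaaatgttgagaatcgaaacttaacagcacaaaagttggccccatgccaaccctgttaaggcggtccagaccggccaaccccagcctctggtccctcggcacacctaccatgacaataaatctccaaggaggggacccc
Isg15 had 3 overlapping matches between 50 and 29 bases before the start. Ifit1 and Ifit3b had 2 matches each on the opposite strand, with the same letters in the same order, those of Ifit1 starting 86 and 67 bases before the start and those of Ifit3b 159 and 125 bases before it. Rsad2 had 1 match, and Oasl1 had none in this window. A match is a string of letters and not a shown binding site.

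Reads assigned to genes ranged from 6869667 to 14708099 per sample (median 8986463). All 8 macrophage markers passed the filter, while 11 of 37 markers of other blood and stromal cells were at 0 in all 18 samples and 9 reached 1 CPM (counts scaled to a common library size) in some sample, the neutrophil gene S100a8 at up to 57.6 CPM. The unstimulated replicates stood apart from each other in these genes. Replicate 1 was the highest of the 3 in 33 of 38 members (39.3% of all tested genes) and replicate 2 the lowest in 37 of 38 (27.4%). On the log2 CPM scale, the median member lay 0.75 above the group mean in replicate 1, 0.72 below it (-0.72) in replicate 2 and at 0.00 in replicate 3, while the median of all genes stayed within 0.02 of the mean. Oasl1 had the widest gap, with replicate 1 at 2.09 above the mean of the other 2, followed by Ifi44 (1.99) and Isg15 (1.97). In the LPS-primed group, replicate 2 was the highest in 35 of 38 members (31.9% of all genes), and with carboplatin in 36 (34.7%). After the group means were removed, the members moved together over the 18 samples, and the correlation of each member with the median of the others was 0.82 in the median (range 0.31 to 0.96). This is a description over 18 samples, and members measured in the same sample share its library and depth.

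**Figure D1:**
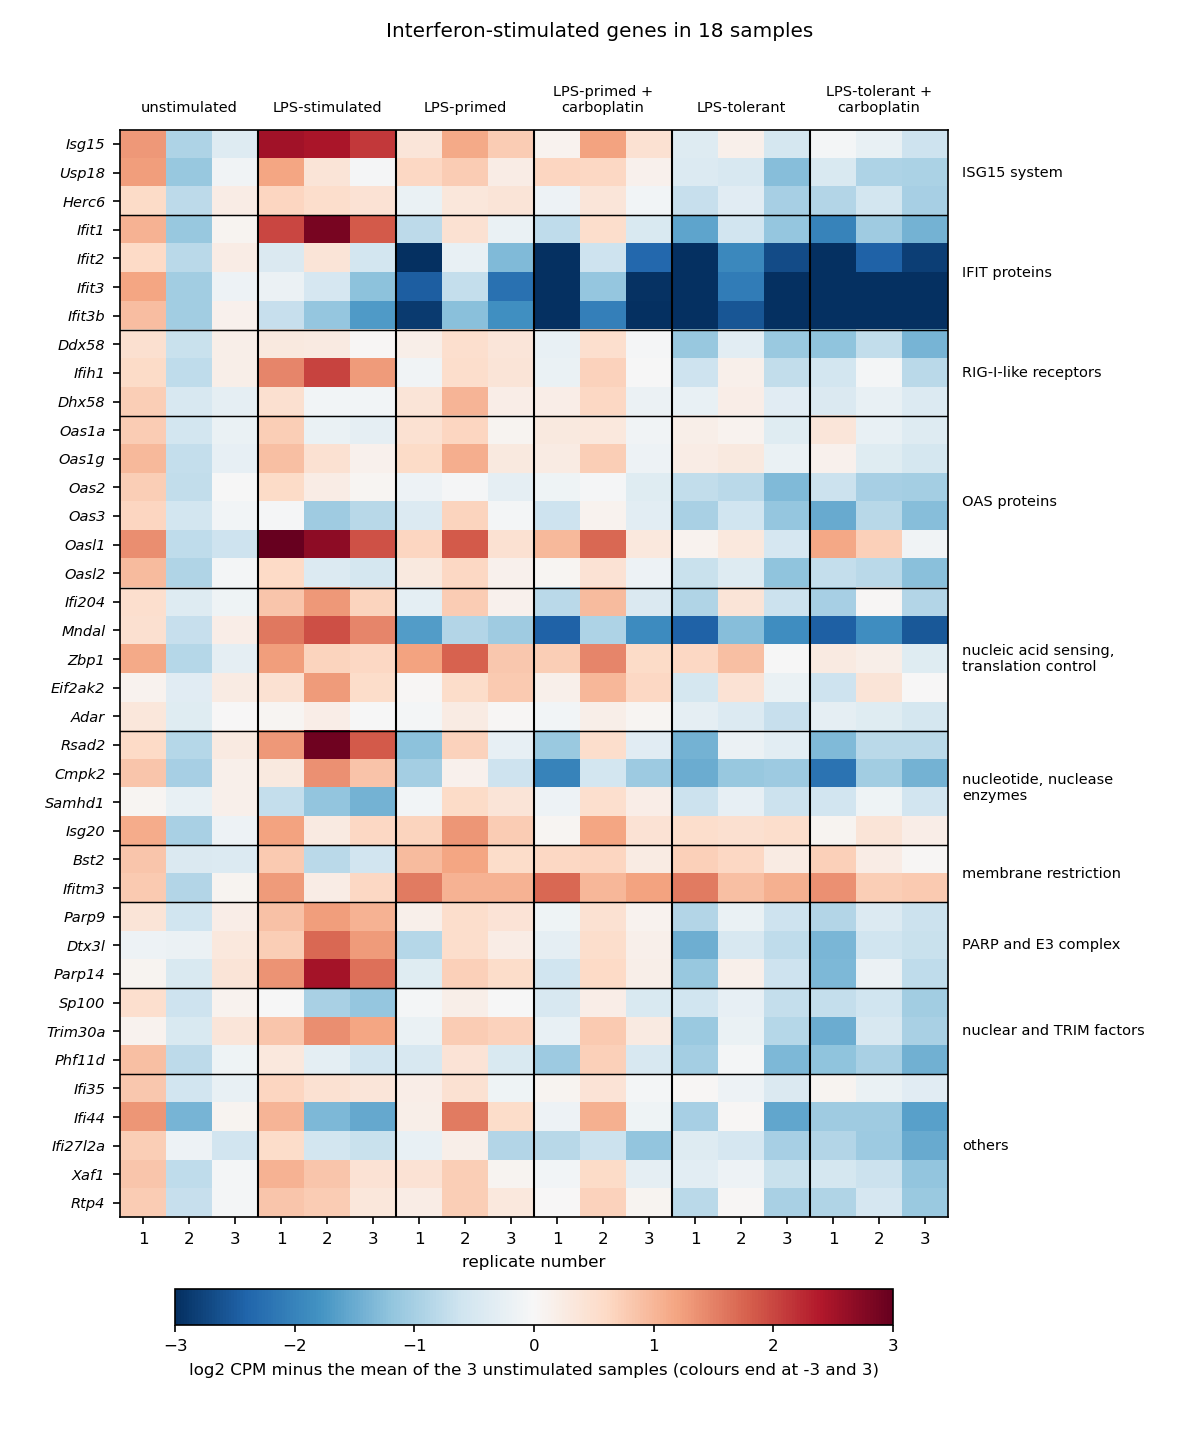
Level of each of the 38 interferon-stimulated genes in the 18 samples, as log2 CPM minus the gene's mean over the unstimulated samples, with genes in rows by role and samples in columns by group. The LPS-stimulated columns are high for Isg15, Ifit1, Rsad2, Oasl1, Mndal and Parp14 and low for Samhd1, and the LPS-tolerant columns are low for most rows.

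Per length of the canonical transcript, the members spanned a wide range of levels. Ifitm3, which blocks fusion of enveloped viruses, held rank 1 in 5 of the 6 groups and rank 2 in unstimulated BMDMs, at 710 CPM per kb against 865 for Ifi27l2a. Ifit3b had the lowest level per length in 4 groups and Ifi44 in unstimulated and LPS-stimulated BMDMs. The highest group mean on the log2 CPM scale was that of LPS-stimulated BMDMs for 19 members, LPS-primed for 13 and unstimulated for 5. The lowest was that of LPS-tolerant BMDMs with carboplatin for 27 members and LPS-tolerant for 6. These counts order group means and are not a test, and the shares of all genes were not counted. The members also move together within samples. No member was called with carboplatin, as described below. In LPS-tolerant BMDMs the members' median log2FC with the drug was -0.25, and 0.02 without LPS-tolerant replicate 2.

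A first exposure to 10 ng/ml LPS for 3 h raised 11 of 38 members and lowered 1, while the other 26 did not pass (edgeR quasi-likelihood F test, Benjamini-Hochberg adjusted p under 0.05). Over all genes tested, 24.3% were called higher and 26.9% lower in the same comparison, and the share of raised members was close to that background. The median log2FC was 0.40 for the members and -0.09 for all genes. The raised members were spread over the roles: Isg15, Ifit1, Rsad2, Oasl1, the RNA sensor Ifih1, the DNA-binding PYHIN gene Mndal, the kinase Eif2ak2, the TRIM gene Trim30a, and all 3 genes of the PARP group, Parp14, Parp9 and Dtx3l. In bulk samples, fewer cells of a type and less RNA per cell cannot be told apart, here and in the comparisons that follow.

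Isg15 encodes a ubiquitin-like protein that is attached to other proteins during infection. Its log2 CPM was 6.64, 4.40 and 4.95 in unstimulated replicates 1, 2 and 3 and 7.85, 7.78 and 7.46 in the LPS-stimulated replicates. The groups did not overlap, and Isg15 rose 4.14-fold (log2FC 2.05, SE 0.44, adjusted p = 0.000898). Ifit1, whose protein binds RNA with an incomplete cap, stood at 7.13, 4.95 and 6.17 before and 8.08, 8.94 and 7.91 after LPS and rose by the same factor, 4.14-fold (log2FC 2.05, SE 0.49, adjusted p = 0.00215). Rsad2 encodes viperin, a radical SAM enzyme that makes a chain-terminating nucleotide. It stood at 5.32, 3.88 and 4.99 and then at 6.02, 7.64 and 6.58, again without overlap, and rose 4.20-fold (log2FC 2.07, SE 0.53, adjusted p = 0.00359).

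Oasl1, an OAS-like gene whose protein is known to hold back translation of Irf7 mRNA, had the highest log2FC of the list. Its log2 CPM was 5.37, 3.21 and 3.35 in unstimulated and 6.98, 6.66 and 5.88 in LPS-stimulated BMDMs, a rise of 4.74-fold (log2FC 2.25, SE 0.56, adjusted p = 0.00299). Unstimulated replicate 1 lay far above the other 2 and still below every LPS-stimulated sample. Mndal stood at 8.81, 7.63 and 8.51 before and 9.89, 10.25 and 9.77 after LPS and rose 3.01-fold (log2FC 1.59, SE 0.37, adjusted p = 0.00202). About 30.7% of its transcript is shared in exact stretches of at least 100 bases with other genes, the longest with Ifi203, so its reads may be split between them.

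Parp14, a mono-ADP-ribosyltransferase, rose 3.67-fold (log2FC 1.88, SE 0.41, adjusted p = 0.00123), from 7.89, 7.36 and 8.19 to 9.17, 10.30 and 9.47. Its neighbours on chromosome 16, Dtx3l and Parp9, form an E3 ubiquitin ligase complex and rose with log2FC values of 1.29 and 1.01 (SE 0.35 and 0.23). The start regions of Parp9 and Dtx3l overlap on opposite strands, and the strand setting of the counting is not given in the sources used here. Ifih1, the sensor of long double-stranded RNA known as MDA5, rose 2.88-fold (log2FC 1.53, SE 0.34, adjusted p = 0.00135). Its relatives Ddx58 and Dhx58 had log2FC values of 0.13 and 0.03 and did not pass.

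Samhd1 went the other way. Its protein breaks down deoxynucleotides and restricts viruses that need them. Its log2 CPM was 8.84, 8.55 and 8.93 in unstimulated and 8.05, 7.58 and 7.35 in LPS-stimulated BMDMs, with no overlap, and it fell to a level 2.13-fold lower (log2FC -1.09, SE 0.22, adjusted p = 0.000606). The IFIT genes were split. Ifit3b stood at 5.18, 3.19 and 4.36 before and 3.55, 3.07 and 2.54 after LPS (log2FC -1.36, SE 0.57, adjusted p = 0.0559), and Ifit3 at 8.37, 6.16 and 7.04 before and 7.0, 6.69 and 5.95 after (log2FC -0.86). Both sets overlapped and neither gene passed. Ifit1 and Ifit3b, with 2 ISRE-like matches each, thus had log2FC values of 2.05 and -1.36, a difference between genes that was not tested. Ifit3 and Ifit3b lie next to each other in the Ifit cluster on chromosome 19 and share 58.5% and 59.8% of their transcripts in exact stretches of at least 100 bases, so how their reads were divided is uncertain.

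**Figure D2:**
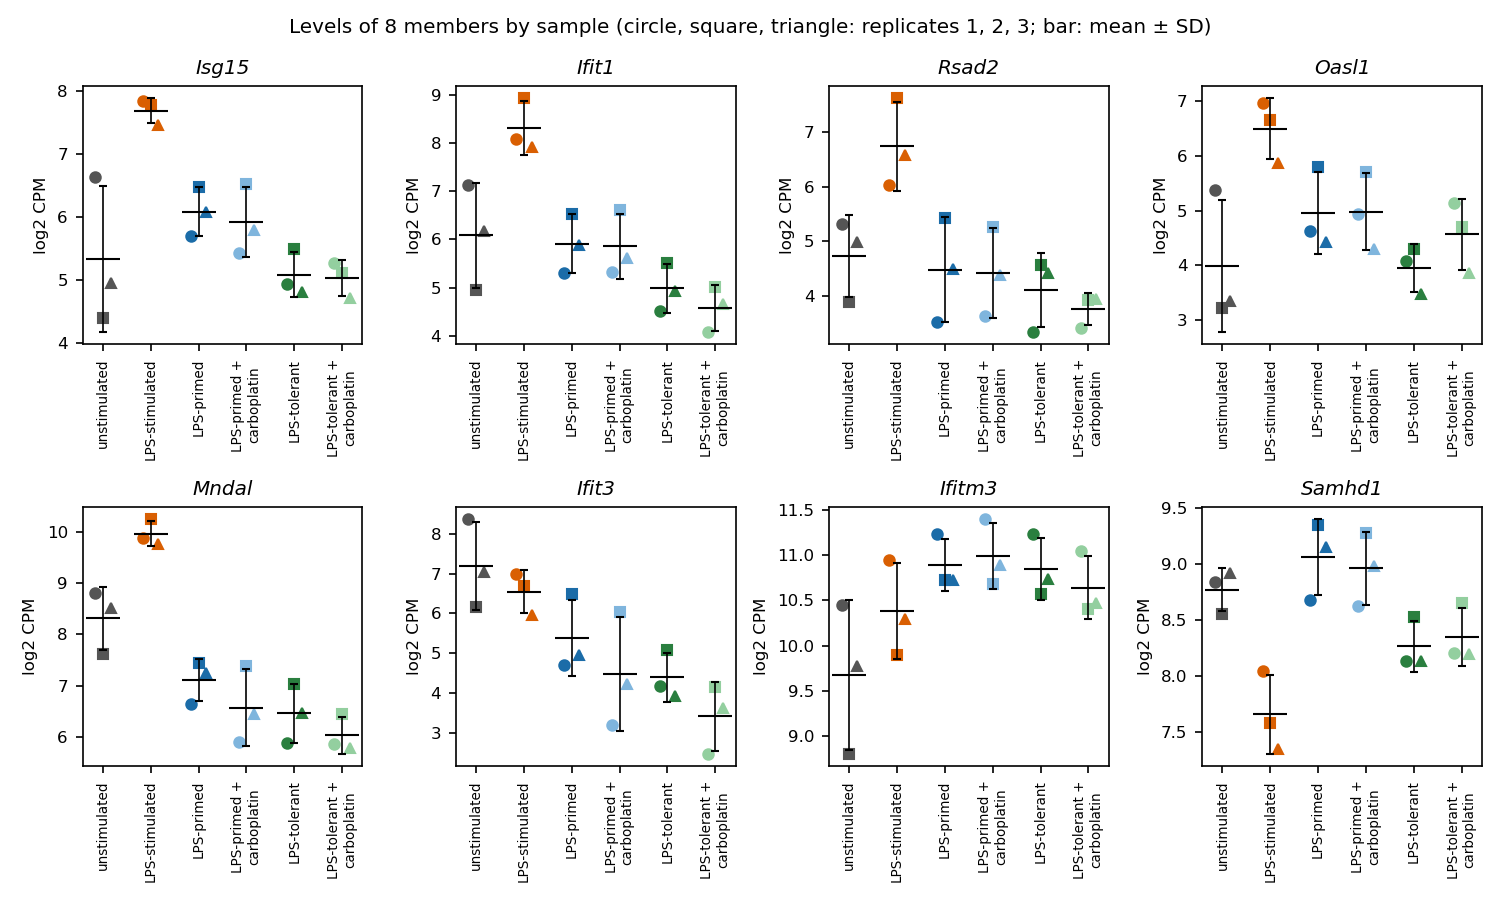
Level in each sample for 8 interferon-stimulated genes, as log2 CPM on the vertical axis by group on the horizontal axis, with points for replicates and bars for group means. Isg15 spans 4.40 to 6.64 in unstimulated and 7.46 to 7.85 in LPS-stimulated BMDMs, while Samhd1 spans 8.55 to 8.93 and 7.35 to 8.05.

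All 12 called members changed in the same direction in each of the 3 same-numbered pairs, which is no separate support, as the same samples gave the calls. With the replicate number as a block, Ifi204, Xaf1 and Ifitm3 were also called higher, which gave 14 (29.5% of all genes), and Ifit3b and Sp100 also lower, which gave 3 (33.8%). Without unstimulated replicate 1, 21 members were called higher. Without unstimulated replicate 2 or LPS-stimulated replicate 1, 4 were called lower. The members' median moved with single samples, to 0.96 without unstimulated replicate 1, 0.14 without unstimulated replicate 2 and 0.25 without LPS-stimulated replicate 1. With library size alone as scaling, 9 were higher and 4 lower. For fits without a sample or with library size alone, the share of all genes called was not counted, here or below. These counts therefore have no background beside them. At the limits of the study, an absolute log2FC above 2 with adjusted p under 0.05, 4 members were higher (6.42% of all genes) and 0 lower (5.54%).

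Among 24 tested genes of the interferon pathway itself, 11 were called higher (24.3% of all genes) and 5 lower (26.9%) after the first LPS. The feedback inhibitors Socs3 (log2FC 8.42, SE 0.54) and Socs1 (5.52, SE 0.85) had the largest values, and the receptor chain Ifnar1 (1.95) and the transcription factor Irf1 (1.85) also rose. Stat2 and Irf9, parts of the ISRE-binding complex, did not pass, with log2FC values of 0.13 and 0.12. Ifnb1, the interferon-β gene, was too low for the filter, with 24, 14 and 5 counts in LPS-stimulated BMDMs and 0 in the 3 unstimulated samples. Its mean was at least 5.37-fold higher than a floor of 3 counts per library. The LPS-primed samples held 0, 6 and 4 counts and the LPS-tolerant samples 2, 6 and 1.

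After 24 h at 100 ng/ml, few members were called different from the unstimulated level. In LPS-primed against unstimulated BMDMs, 1 of 38 members was called higher (12.1% of all genes) and 2 lower (13.1%), and the median log2FC was 0.22 against -0.02 for all genes. The 95% intervals had a median half-width of 0.76. They stayed within 1 log2 unit of no change for only 14 members, so members without a call may still differ. Ifitm3, a membrane protein that restricts viral entry, rose 2.13-fold (log2FC 1.09, SE 0.35, adjusted p = 0.0292). Its log2 CPM was 10.45, 8.80 and 9.77 in unstimulated and 11.23, 10.72 and 10.73 in LPS-primed BMDMs, so each LPS-primed sample lay above each unstimulated one. Ifit3b stood at 1.38, 2.99 and 2.39 in LPS-primed BMDMs and was 4.30-fold lower than unstimulated (log2FC -2.10, SE 0.60, adjusted p = 0.0144). Mndal, at 6.65, 7.44 and 7.25, was 2.37-fold lower (log2FC -1.25, SE 0.37, adjusted p = 0.0200).

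Ifit3 and Zbp1 came close to the limit without passing it. Ifit3 had a log2FC of -1.87 (SE 0.67, adjusted p = 0.0513). Zbp1, a sensor of Z-form nucleic acids that can start cell death, had a log2FC of 1.07 (SE 0.41, adjusted p = 0.0676). Ifit2 spread from 3.22 to 6.27 among the LPS-primed replicates, with a log2FC of -1.26 and an SE of 0.77. With the replicate block, 3 members were called higher, Bst2 and Zbp1 being added (18.9% of all genes), and 4 lower, Ifit2 and Ifit3 being added (19.8%). The calls depended on which unstimulated sample was used: without replicate 1, 9 members were higher and 0 lower, without replicate 2 none was higher and 3 were lower, and without replicate 3 the counts were 0 and 1. They were 0 and 0 without LPS-primed replicate 1 and 1 and 3 without LPS-primed replicate 2. The members' median was 0.52 without unstimulated replicate 1, 0.00 without unstimulated replicate 2 and 0.04 without LPS-primed replicate 2. Scaling by library size alone gave 0 higher and 3 lower.

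The 24 h and the 3 h exposure were also set against each other directly. They differ in dose as well as in time, and these cannot be told apart. In LPS-primed against LPS-stimulated BMDMs, 10 of 38 members were lower (22.6% of all genes) and 1 was higher (22%), with a median log2FC of -0.31 against 0.03. The share called lower was close to that of all genes, and 14 members had a log2FC above 0. Mndal was 7.14-fold lower (log2FC -2.84, SE 0.39, adjusted p = 2.14e-05), Ifit1 5.25-fold lower (log2FC -2.39, SE 0.49, adjusted p = 0.000869) and Rsad2 4.71-fold lower (log2FC -2.24, SE 0.53, adjusted p = 0.00263). The mitochondrial nucleotide kinase Cmpk2, which lies 12.8 kb from Rsad2 on chromosome 12, was also lower (log2FC -1.34, SE 0.44, adjusted p = 0.0210). Samhd1 was the only member called higher, 2.64-fold after 24 h (log2FC 1.40, SE 0.22, adjusted p = 8.69e-05). It stood at 8.69, 9.35 and 9.15 in LPS-primed BMDMs, above all 3 LPS-stimulated samples. Without LPS-stimulated replicate 1, 5 members were higher, without LPS-stimulated replicate 2 only 6 were lower, and without LPS-primed replicate 1, 2 were higher. The median was -0.15 without LPS-primed replicate 1 and -0.17 without LPS-primed replicate 3. Library size alone gave 3 higher and 9 lower.

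The comparison of tolerance, LPS-tolerant against LPS-stimulated BMDMs, asks how cells that were primed differ from naive cells at the same 3 h after 10 ng/ml LPS. It gave the most calls in the list. Of 38 members, 23 were lower, against 18.3% of all genes, and 1 was higher, against 16.2%. The log2FC was below 0 in 34 of 38 members and in 49.8% of all genes, and the median was -1.16 against 0.00. As members move together within samples, the 34 are not separate observations. At the limits of the study, 11 members were lower (5.07% of all genes) and 0 higher (2.97%). By role, all 4 IFIT genes, all 3 of the ISG15 system and all 3 of the PARP group were lower, as were 4 of 5 genes of nucleic acid sensing and translation control, but only 2 of 6 OAS genes and neither Bst2 nor Ifitm3.

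Mndal was 11-fold lower (log2FC -3.45, SE 0.40, adjusted p = 5.54e-06). Its log2 CPM was 5.88, 7.03 and 6.46 in LPS-tolerant against at least 9.77 in every LPS-stimulated sample. Ifit1, at 4.51, 5.51 and 4.93, was 10.2-fold lower (log2FC -3.34, SE 0.52, adjusted p = 8.87e-05). Mndal was below the lowest unstimulated sample in all 3 LPS-tolerant samples, and Ifit1 in 2 of them. Rsad2, at 3.32, 4.55 and 4.42, was 6.58-fold lower (log2FC -2.72, SE 0.54, adjusted p = 0.000901). Isg15, at 4.94, 5.48 and 4.81, was 6.06-fold lower (log2FC -2.60, SE 0.45, adjusted p = 0.000236), and Oasl1, at 4.08, 4.30 and 3.47, was 6.04-fold lower (log2FC -2.60, SE 0.57, adjusted p = 0.00184). For each of these 5 genes, every LPS-tolerant sample lay below every LPS-stimulated sample.

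The list also held members that were lower in LPS-tolerant cells without having passed after the first LPS. Ifit2 had a log2FC of -2.46 (SE 0.81, adjusted p = 0.0255), Cmpk2 of -2.16 (SE 0.46, adjusted p = 0.00143) and Ifit3 of -2.13 (SE 0.69, adjusted p = 0.0235). Usp18, the protease that removes ISG15 and also dampens the interferon receptor, had a log2FC of -1.29. Herc6, the main ISG15 ligase of mice, had -1.19. Ddx58, which senses short double-stranded RNA with a triphosphate end, had -1.0, and the RNA-editing enzyme Adar had the smallest called value, -0.54. Samhd1 again went against the rest and was 1.51-fold higher (log2FC 0.59, SE 0.22, adjusted p = 0.0472), at 8.14, 8.53 and 8.14. Bst2, which tethers virus particles to the cell surface, and Ifitm3 had log2FC values of 0.56 and 0.43 and did not pass.

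In this comparison the replicate block gave 24 lower (24.7% of all genes) and 3 higher (22.9%), with Bst2 (log2FC 0.67, SE 0.25, adjusted p = 0.0342) and Ifitm3 (log2FC 0.47, SE 0.16, adjusted p = 0.0217) called beside Samhd1. Without LPS-tolerant replicate 3, 13 members were lower. The higher call of Samhd1 was lost when any 1 of the 3 LPS-tolerant samples or of LPS-stimulated replicates 2 and 3 was left out, and without LPS-stimulated replicate 1 Bst2 joined it, which gave 2. Marker genes also differed between these groups. The 8 macrophage markers summed to 14700 to 18700 CPM in LPS-stimulated and 24100 to 29800 in LPS-tolerant BMDMs. The 6 neutrophil markers summed to 4.31 to 12.5 and 14.1 to 57.7 CPM, with Ly6g and Mpo at 0 in all 18 samples. These sums were mainly S100a8, which reached 57.6 CPM in some sample, against at most 1.09 for S100a9, 0.272 for Elane and 0.0881 for Ngp. The 5 T cell markers summed to 2.33 to 5.13 and 0.332 to 0.544 CPM, with Cd3e, Cd3g and Cd3d at 0. In any sample, Lck reached at most 5.13 CPM and Trac 0.435. The part of these marker differences in the result was not tested. Of the pathway genes, 13 of 24 were lower (18.3% of all genes) and 2 higher (16.2%). Socs1 and Socs3 had a log2FC of -3.05 each, Irf1 of -2.83, and the ISRE-binding partners Stat2 and Irf9 of -1.08 and -0.57. Irf7, the factor that amplifies interferon production, was higher (1.63, SE 0.53). Its mean log2 CPM was 7.42 in LPS-stimulated and 9.25 in LPS-tolerant BMDMs, and 9.73 in LPS-primed BMDMs before the second LPS.

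A different contrast follows cells that were already primed through the same 10 ng/ml LPS, LPS-tolerant against LPS-primed BMDMs. The LPS-tolerant cells also had their medium replaced and were cultured 3 h longer, and as no group had fresh medium without LPS, these cannot be told apart from LPS here or in the difference between responses below. All 38 members had a log2FC below 0, against 51.6% of all genes, and the median was -0.81 against -0.01 (-0.52 without LPS-primed replicate 2). The value was negative in each of the 3 same-numbered pairs for 37 members (27.6% of all genes). The members move together within samples, so these are not 38 separate observations of a fall. Only 3 members were called lower (2.71% of all genes) and 0 higher (3.6%) by edgeR, with 16 lower and 0 higher at an unadjusted p under 0.05 (10.4% and 10.7%). Limma-voom and DESeq2 also called 0 higher. With the replicate block, 14 were called lower (8.32%). The count of calls was fragile in both directions, at 5 without LPS-primed replicate 1 or LPS-tolerant replicate 2 and 0 when any 1 of the other 4 samples was left out.

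Ddx58 was 2.23-fold lower (log2FC -1.16, SE 0.28, adjusted p = 0.0204), from 7.08, 7.43 and 7.28 in LPS-primed to 5.77, 6.60 and 5.81 in LPS-tolerant BMDMs. Parp9 was 1.88-fold lower (log2FC -0.91, SE 0.24, adjusted p = 0.0295), from 7.06, 7.43 and 7.32 to 6.04, 6.71 and 6.29. Samhd1 was 1.75-fold lower (log2FC -0.81, SE 0.22, adjusted p = 0.0374). None of these 3 genes overlapped between the groups. Larger values with wider errors did not pass, at -1.58 for Ifi44, -1.44 for Ifit2, -1.36 for Ifit3b and -1.23 for Usp18. The smallest was that of Ifitm3, -0.04, with 11.23, 10.57 and 10.74 in LPS-tolerant and 11.23, 10.72 and 10.73 in LPS-primed BMDMs. Usp18, Trim30a, Oasl2, Oas3, Rtp4, Dtx3l, Herc6, Parp14, Xaf1, Oas2 and Adar were added by the block. Of the 24 pathway genes, 5 were lower (2.71% of all genes) and 1 higher (3.6%). Stat2 (-1.15, adjusted p = 0.0333) and Irf1 (-0.90, adjusted p = 0.0275) were among the 5.

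**Figure D3:**
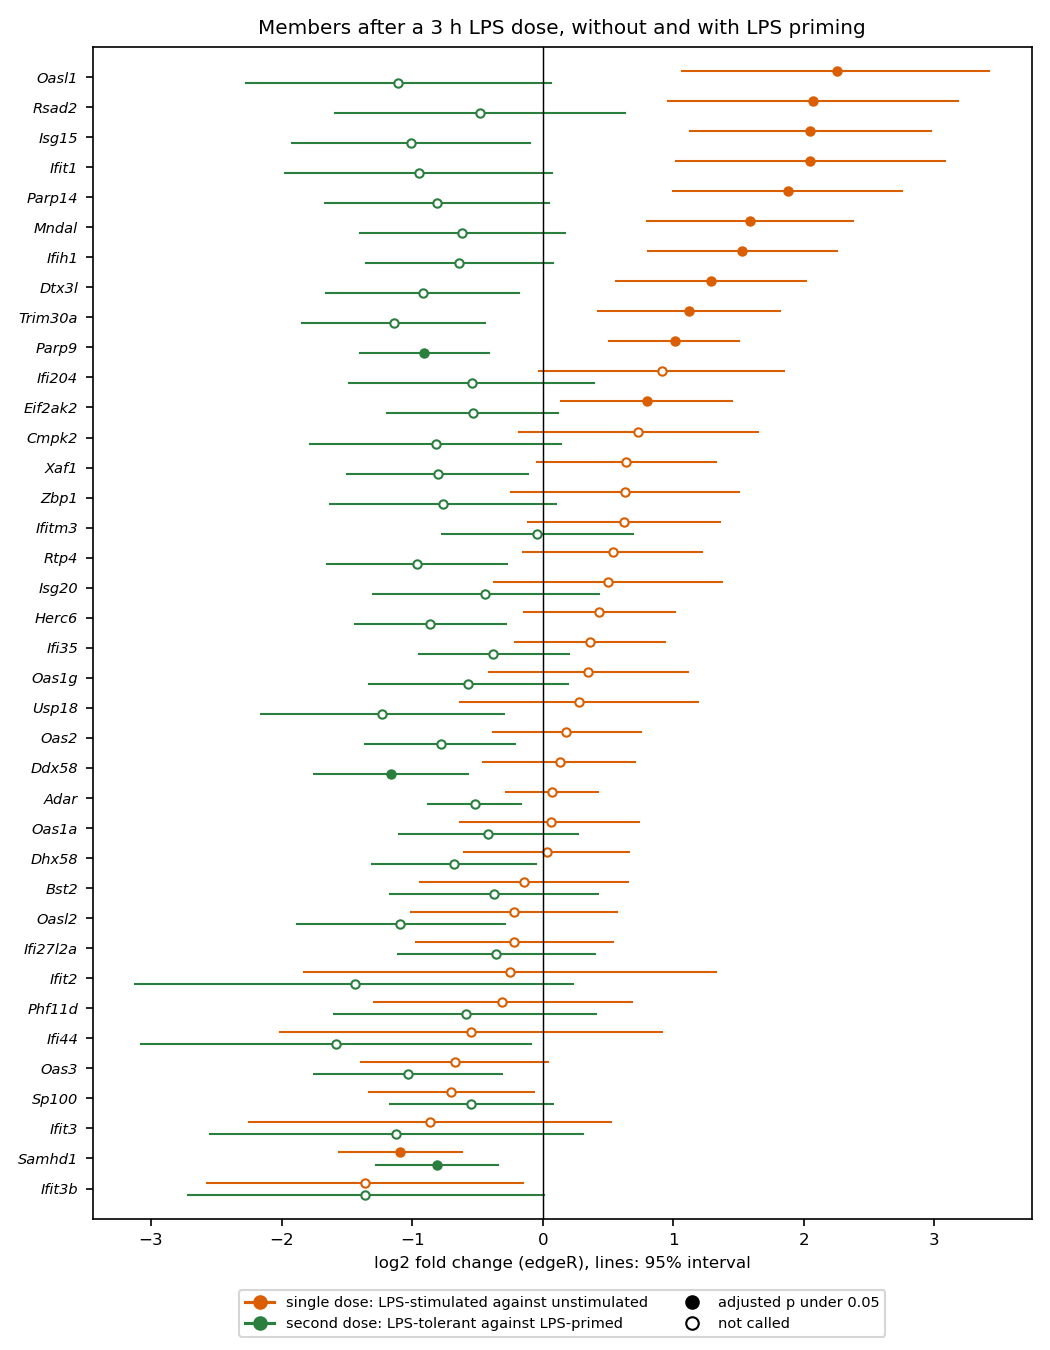
Log2 fold change with its 95% interval for each interferon-stimulated gene, for LPS-stimulated against unstimulated and for LPS-tolerant against LPS-primed BMDMs, with filled points for genes called at adjusted p under 0.05. The first LPS gives values from -1.36 to 2.25 and the second LPS values from -1.58 to -0.04, all below 0.

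The difference between these responses, that of primed cells minus that of naive cells, was tested as a contrast of its own. It was below 0 and called for 15 of 38 members (13.3% of all genes) and above 0 and called for 0 (10.5%), with 0 higher also at an unadjusted p under 0.05 (16.3%). The median was -1.24 against 0.06 for all genes. At the limits of the study, 9 members were called lower (4.93%). Oasl1 had the largest difference (-3.35, SE 0.78, adjusted p = 0.00466), followed by Isg15 (-3.06, SE 0.61, adjusted p = 0.00137), Ifit1 (-3.0, SE 0.68, adjusted p = 0.00387), Parp14 (-2.69, SE 0.58, adjusted p = 0.00252) and Rsad2 (-2.55, SE 0.74, adjusted p = 0.0185). In each of the 15 genes the difference was below 0 in 3 of 3 sets of same-numbered samples. The genes were called from these same samples, so this is no separate support. The numbers were also not taken to pair samples in this comparison. Ddx58, with log2FC values of 0.13 after the first LPS and -1.16 after the second, differed by -1.29 (SE 0.39, adjusted p = 0.0243). Samhd1, which fell in both responses (-1.09 and -0.81), had a difference of 0.29 and was not called.

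This contrast uses the spread unstimulated samples. Without unstimulated replicate 1, 25 members were called, and without LPS-primed replicate 2, 9 were. Oasl1, Isg15, Ifit1, Parp14, Mndal, Dtx3l, Ifih1, Parp9 and Trim30a were called in each of the 12 fits that left out a sample. Among the 24 pathway genes 10 were lower (13.3% of all genes) and 1 higher (10.5%). Socs3 (-9.14, SE 0.64), Socs1 (-6.41, SE 1.10) and Irf1 (-2.75, SE 0.33) had the largest differences of those named here.

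**Figure D4:**
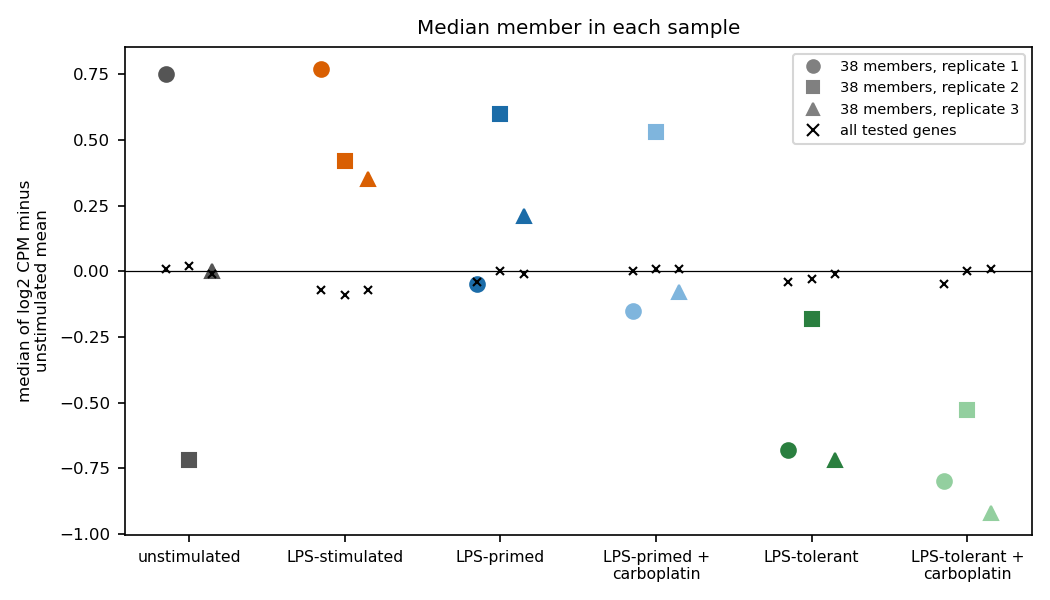
Median over the 38 interferon-stimulated genes and over all tested genes in each sample, as log2 CPM minus the unstimulated mean, by group. The members range from -0.72 to 0.75 in unstimulated, from 0.35 to 0.77 in LPS-stimulated, and from -0.72 to -0.18 in LPS-tolerant BMDMs, while the median of all genes stays between -0.09 and 0.02.

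Genes with and without an ISRE-like match could be set side by side, as a description. After the first LPS, 7 of the 20 genes with a match and 4 of the 18 without were called higher, with median log2FC values of 0.45 and 0.40. In LPS-tolerant against LPS-stimulated BMDMs, 14 of 20 and 9 of 18 were lower, with medians of -1.25 and -0.68. In the difference between responses, 9 of 20 and 6 of 18 were lower (medians -1.36 and -0.98). Other comparisons did not all go this way. In LPS-tolerant against LPS-primed BMDMs, 1 of 20 and 2 of 18 were lower (medians -0.77 and -0.81). In LPS-primed against LPS-stimulated BMDMs, 5 of 20 and 5 of 18 were lower (medians -0.39 and -0.21). The medians with carboplatin were -0.18 and -0.22 in LPS-primed and -0.27 and -0.22 in LPS-tolerant BMDMs. A link between match and response was not tested. Oasl1, which had the largest difference, has no match in its printed 200 bases, and Isg15, next to it in size, has 3.

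No member passed the test with carboplatin given before priming. In LPS-primed BMDMs, edgeR called 0 of 38 members higher (0% of all genes) and 0 lower (0.372%), and 0 had an unadjusted p under 0.05 (2% of all genes higher and 4.87% lower). In LPS-tolerant BMDMs the counts were 0 higher (0.0177%) and 0 lower (0.407%), again with 0 at an unadjusted p under 0.05 (2.4% and 4.33%). The calls of this fit were also 0 at an adjusted p under 0.25, and those of limma-voom and DESeq2 were 0. With the replicate block they were 0 in LPS-primed (0.239% of all genes higher and 1.53% lower) and 0 in LPS-tolerant BMDMs (0.336% and 1.43%), and 1 member was lower at an unadjusted p under 0.05 in LPS-primed (8.04%) and 1 in LPS-tolerant BMDMs (7.17%). Among the members, the lowest adjusted p with the block was that of Ifi27l2a in both states, 0.207 in LPS-primed, which is under 0.25, and 0.287 in LPS-tolerant BMDMs.

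With all samples, most values lay below 0. In LPS-primed BMDMs, 33 of 38 members had a log2FC below 0 with carboplatin (48.3% of all genes), 21 of them in all 3 same-numbered pairs (20.7%), and the median was -0.22 against 0.01. In LPS-tolerant BMDMs, 31 were below 0 (48.6%), 23 in all 3 pairs (22%), and the median was -0.25 against 0.01. The members move together within samples, so these are not 38 separate observations, and the counts moved with single samples. In LPS-primed BMDMs, 18 members were below 0 without LPS-primed replicate 2 (median 0.01), and with carboplatin replicates 1, 2 or 3 left out in turn the count was 24, 37 or 26 (medians -0.09, -0.50 and -0.10). In LPS-tolerant BMDMs, 18 were below 0 without LPS-tolerant replicate 2 (median 0.02), and 29 without the third carboplatin replicate (median -0.16). The lowest value was that of an IFIT gene in each state. Ifit3b stood at -0.62, 2.19 and 0.79 with carboplatin against 1.38, 2.99 and 2.39 without it in LPS-primed BMDMs (log2FC -1.20, SE 0.64, adjusted p = 0.801). Ifit3 stood at 2.48, 4.17 and 3.63 against 4.17, 5.08 and 3.93 in LPS-tolerant BMDMs (log2FC -0.91, SE 0.70, adjusted p = 0.995). In both, each carboplatin sample was lower than its same-numbered partner and the groups overlapped.

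Oasl1 had the highest value in LPS-tolerant BMDMs, with 5.14, 4.69 and 3.86 against 4.08, 4.30 and 3.47 (log2FC 0.67, SE 0.55, adjusted p = 1), and 0.01 in LPS-primed BMDMs. Mndal stood at 5.89, 7.38 and 6.44 with carboplatin in LPS-primed and at 5.86, 6.44 and 5.78 in LPS-tolerant BMDMs. The 95% intervals had a median half-width of 0.76 log2 units in both states. They lay within -1 to 1 for 17 members in LPS-primed and 19 in LPS-tolerant BMDMs, the narrowest being that of Adar (half-width 0.34 and 0.35) and the widest that of Ifit2 (1.62 and 1.72). These intervals are not adjusted for the number of genes tested, while the calls are. The change needed for a call was therefore larger than the half-width. Ifit3b, with a log2FC of -1.20 in LPS-primed BMDMs, was not called. Changes of about 2-fold, and larger ones, could go uncalled for many members at this depth and replicate number. The effect of carboplatin in LPS-tolerant minus that in LPS-primed BMDMs was called for 0 members in either direction (0% and 0% of all genes), with a median of -0.01 that ranged from -0.19 to 0.25 without a sample. Of the 24 pathway genes, 0 were called with carboplatin in either state. With the replicate block 1 was lower in LPS-tolerant BMDMs (1.43% of all genes). It was Irf8, a transcription factor of the macrophage lineage (log2FC -0.53, SE 0.13, adjusted p = 0.0412).

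**Figure D5:**
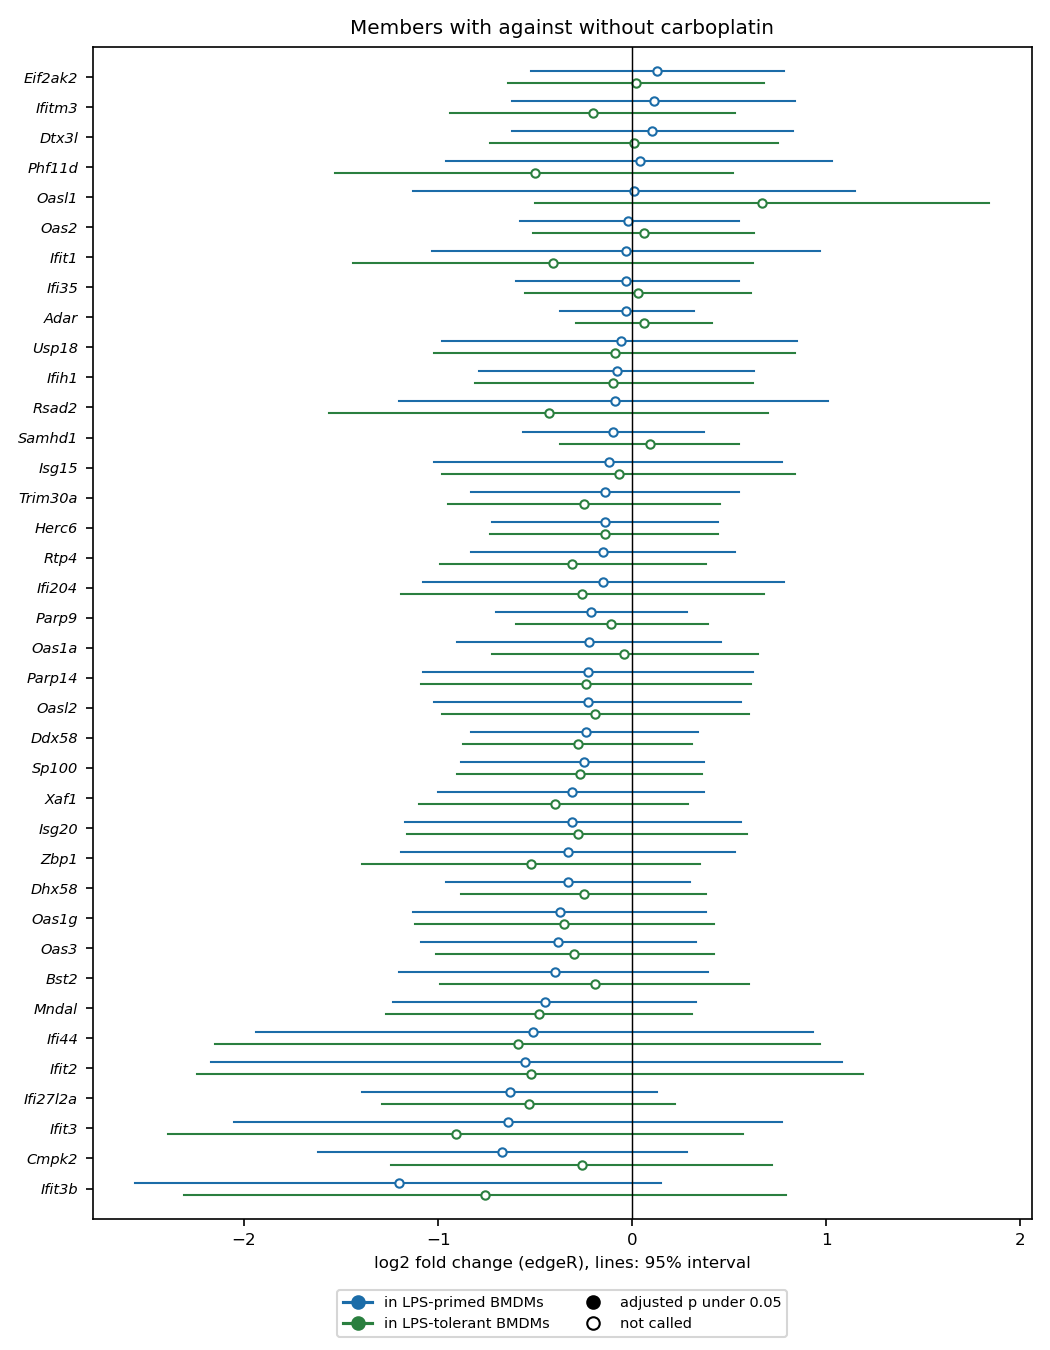
Log2 fold change with its 95% interval for carboplatin against no carboplatin in LPS-primed and in LPS-tolerant BMDMs, for each interferon-stimulated gene. No gene is called, values run from -1.20 to 0.13 in LPS-primed and from -0.91 to 0.67 in LPS-tolerant BMDMs, and the interval is widest for Ifit2.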

How the data were processed

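Total RNA of 18 BMDM samples was sequenced as polyadenylated RNA libraries. The authors mapped them with HISAT2 on GRCm39 and deposited raw counts per gene from HTSeq, not normalized. Program versions, annotation and strand setting are not given in the sources used here. HTSeq summary lines, 41.5% to 46.9% of reads, were left out of library sizes and tests. Genes were tested with edgeR 4.0.16 in R 4.3.3: filterByExpr (minimum count 10, minimum total 15), TMM (factors 0.90 to 1.20), 1 fit of all 18 samples with a mean per group, quasi-likelihood F test, and Benjamini-Hochberg adjustment over 11305 genes. Log2FC used a prior count of 0.125, with SE as the absolute log2FC over the square root of F. Levels are log2 CPM with a prior count of 2. Pairs are same-numbered samples. After removal of group means, same-numbered samples correlated at 0.35 on average over 45 pairs (range 0.06 to 0.57), and the numbers were taken to pair samples in every comparison except LPS-primed against LPS-stimulated and the second minus the first LPS response. The pairing comes from these correlations and not from the labels. Alternatives were DESeq2 1.42.0, limma-voom (limma 3.58.1), other scalings and filters, the replicate block, the study's limits and leaving out each sample. Full statistics are given for the highest and lowest log2FC, for members against the common direction, and for all called where they were few. Promoters were read from the GRCm39 genome with the GENCODE annotation. The scripts' tests were checked on simulated counts. The members, the pathway and marker lists and the role groups were chosen with earlier results of these data known. Values of 1 gene of the pathway list and of 1 further motif searched are not reported here.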

Additional observations from a re-analysis of the deposited data

Results flagged for a closer look

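The responses to LPS in primed and in naive BMDMs differed in 15 of 38 interferon-stimulated genes, by the test of the difference itself. The test was an edgeR contrast of the 4 groups at a Benjamini-Hochberg adjusted p under 0.05. Of all genes, 13.3% were called lower and 10.5% higher in it. The difference was negative in each of the 15 genes, in 3 of 3 sets of same-numbered samples. This is no separate support, as the same samples gave the calls. On the log2 scale it was -3.35 for Oasl1, -3.06 for Isg15, -3.0 for Ifit1, -2.69 for Parp14, -2.55 for Rsad2, -2.26 for Trim30a, -2.21 for Mndal, -2.21 for Dtx3l, -2.16 for Ifih1, -1.91 for Parp9, -1.50 for Rtp4, -1.44 for Xaf1, -1.33 for Eif2ak2, -1.29 for Herc6 and -1.29 for Ddx58. The groups of 3 samples are too small for a test of single outlying samples. With 1 sample left out, the count called lower ranged from 9 to 25. The LPS-tolerant cells also had fresh medium and 3 h more in culture, which cannot be told apart from the second LPS.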

How the results depend on the processing

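Of 92 results for named members, 29 were called. Named members were picked by their log2FC or call in these data, so other called members lie outside this tally. None of the 29 changed direction under another setting or without a sample. Under other settings 226 of their values kept the call and 5 lost it, and without a sample 177 kept it and 27 lost it. Scaling by library size alone moved the median of all genes from -0.09 to -0.43 in LPS-stimulated against unstimulated BMDMs, from -0.02 to -0.26 in LPS-primed against unstimulated, and from 0.06 to 0.30 in the second minus the first LPS response, and the members' medians from 0.40 to 0.06, from 0.22 to -0.01 and from -1.24 to -0.99. The cause of the changes below was not tested. For limma-voom, DESeq2, other filters and the contrast's samples only, no share of all genes called is given. At the limits of the study and with the block, shares are given above for some comparisons only. Counts of members without such a share have no background beside them.

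In LPS-primed against unstimulated BMDMs, the count called higher was 0 at the limits of the study, with library size alone and with the contrast's samples only, 2 without a filter, with limma-voom and with DESeq2, and 3 with the replicate block, and 0 to 9 without a sample. The count lower was 1 at the limits of the study and 4 with the block, and 0 to 3 without a sample. In LPS-stimulated against unstimulated, 4 were higher at the limits of the study, and 10 to 21 without a sample. The count lower was 0 at those limits, 4 with library size alone, 2 without a filter and with the contrast's samples only, and 3 with the block and limma-voom, and 1 to 4 without a sample. In LPS-primed against LPS-stimulated, the count higher was 0 at the limits of the study, 3 with library size alone and limma-voom, 2 without a filter and with DESeq2, and 4 with the block, and 1 to 5 without a sample. The count lower was 3 at those limits and 6 to 10 without a sample. In LPS-tolerant against LPS-stimulated, the count higher was 0 at the limits of the study, with library size alone and with the contrast's samples only, and 3 with the block, and 0 to 2 without a sample. The count lower was 11 at those limits and 13 to 22 without a sample. In LPS-tolerant against LPS-primed, the count lower was 0 at the limits of the study, 6 with library size alone, 14 with the block and 9 with DESeq2, and 0 to 5 without a sample. In the second minus the first LPS response, the count lower was 9 at the limits of the study, 22 with the block and 9 to 25 without a sample. The block changed no count of members called with carboplatin.

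Sign changes were found in members that were not called. In the second minus the first response, Ifit3b was -0.01 with RLE size factors, -0.06 with limma-voom and -0.04 with DESeq2, and Ifi27l2a was 0.08 with library size alone. With carboplatin in LPS-primed BMDMs, Oasl1 was -0.01 with the block and Phf11d -0.05 with limma-voom. Without a sample, values ranged in LPS-tolerant against LPS-stimulated from -0.36 to 0.23 for Oas1a and -0.09 to 0.57 for Sp100, and in LPS-tolerant against LPS-primed from -0.26 to 0.15 for Ifitm3. In the second minus the first response they ranged from -0.57 to 0.44 for Ifit3b, -0.77 to 0.44 for Bst2, -0.13 to 0.60 for Sp100 and -0.60 to 0.36 for Ifi27l2a. With carboplatin in LPS-primed BMDMs they ranged from -1.76 to 0.31 for Ifit2, -1.80 to 0.13 for Ifit3, -0.44 to 0.57 for Oasl1, -0.09 to 0.32 for Eif2ak2, -0.12 to 0.30 for Ifitm3, -0.20 to 0.40 for Dtx3l and -0.64 to 0.40 for Phf11d. In LPS-tolerant BMDMs they ranged from -0.10 to 0.16 for Oas2, -0.05 to 0.16 for Adar, -0.08 to 0.23 for Samhd1, -0.09 to 0.14 for Ifi35 and -0.89 to 0.01 for Ifi44. In the difference of the carboplatin effects they ranged from -0.75 to 0.11 for Ifit1, -1.05 to 0.89 for Ifit3, -0.94 to 0.20 for Rsad2, 0.00 to 0.37 for Bst2 and -0.90 to 0.14 for Phf11d. The members' median level in each group moved by less than the replicate spread with another prior count or scaling. With the shorter core, 21 in place of 20 promoters of members matched, while the share of all promoters went from 3.84% to 8.78%. Ifit3b, Ifi44 and Isg20 had the fewest reads, and Oas1a and Oas1g share most of their sequence, which limits their values.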
